A study of Homo sapiens with 6 samples.

Results

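The 9 genes described here encode the enzymes that write, copy, read and remove DNA methylation. They were the writers DNMT1, DNMT3A and DNMT3B, the readers UHRF1 and UHRF2, the erasers TET1, TET2 and TET3, and the repair glycosylase MBD4. They were chosen by name from their known roles, with earlier results of these data known, and all 9 were found among the 15585 genes of the deposited count table. RNA was sequenced from U2OS cells, a human osteosarcoma line, 48 h after transfection with siRNA. The 3 siCTR libraries had received control siRNA, and the 3 siLSD1 libraries had received siRNA against LSD1 (gene symbol KDM1A), a demethylase that removes methyl groups from lysines of histones and of other proteins. The labels do not say which LSD1 siRNA was used, or whether the 3 libraries of a group came from separate cultures, so p-values measure the spread between these libraries, which may be technical. Sequenced RNA does not show protein, and DNA methylation itself was not measured in these samples.

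Cytosine methylation at CpG dinucleotides is set by DNMT3A and DNMT3B and copied to the new strand after replication by DNMT1. UHRF1 recognises the CpG that carries a methyl group on only one strand and brings DNMT1 to it. TET enzymes oxidise the methyl group, and base excision repair replaces the oxidised base. LSD1 is known to remove a methyl group from the DNMT1 protein and thereby to protect it from degradation, which is a step after transcription, and the comparison here asked whether the RNA of these genes differed after LSD1 knockdown.

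DNMT1 and UHRF1 are known cell cycle genes whose promoters respond to E2F, the S-phase transcription factor. The RefSeq promoter windows on GRCh38.p14, which run from 250 bases before to 50 bases after each annotated start, were searched on both strands for the E2F words TTTGGCGC, TTTCCCGC, TTTGCCGC and TTTCGCGC. A word was present in 3 of the 20 windows of the 9 genes, compared with 3.31% of all 35116 windows. The 3 windows were that of DNMT1 and 2 of the 3 windows of UHRF1. The sites are shown because they are the sequence feature that DNMT1 and UHRF1 share, and each is printed 5′ to 3′ on the strand of the gene as 30 bases with the word, or its reverse complement, in capitals.
DNMT1, chr19:10194937-10194966, minus strand: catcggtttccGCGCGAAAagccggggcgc
UHRF1, first window, chr19:4909476-4909505, plus strand: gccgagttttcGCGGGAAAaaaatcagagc
UHRF1, second window, chr19:4909973-4910002, plus strand: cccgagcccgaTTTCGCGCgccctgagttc
The DNMT1 word overlies the annotated start, from base -2 to 6, and the first UHRF1 word lies just before its start, from base -14 to -7 (counted without a base 0). The words are matches of letters and do not show binding. The windows also differed in CpG dinucleotides, the substrate of these enzymes. The single DNMT3B window held 3 CpGs and the TET1 windows 6 to 11, against a median of 14 over all windows. The DNMT1 window held 30 CpGs and the TET3 windows 33 and 45. The DNMT3B window (chr20:32779602-32779901, plus strand) lies inside the gene, which starts at base 32762385 in the GENCODE annotation. Its count therefore does not describe the sequence at that start, where CpGs were not counted. The DNMT1 window, and some of the TET1 and TET3 windows, also lie inside their GENCODE genes.

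The libraries held 12513511 to 13561344 counted reads. KDM1A fell to 18.5% of its siCTR level (489 ± 16.4 CPM in siCTR and 90.4 ± 6.92 CPM in siLSD1, SD, n = 3), with a log2 fold change of -2.44 ± 0.11 (SE) and an adjusted p of 2.27e-07 in edgeR after Benjamini-Hochberg adjustment. CPM values are counts scaled to library depth with TMM factors. Of 11844 genes that passed the filter on low counts, 127 were upregulated and 44 downregulated at an adjusted p under 0.05. Vimentin RNA was abundant, with 9487 to 11615 reads per library, and PTPRC, the leukocyte marker, had 1 read in all. The bone-lineage genes SPARC and RUNX2 had at most 4 reads in any library, whereas the bone matrix gene COL1A1 had 122 to 200. The summed level of the epithelial markers was 29.2 to 34.1 CPM in siCTR and 31.2 to 37.3 CPM in siLSD1. Of the 3 tested, CLDN4 (-0.20) and EPCAM (-0.06) were lower on the log2 scale, and CDH1, which encodes E-cadherin, was higher at 0.77, with an adjusted p of 0.0699 in edgeR and 0.0286 in DESeq2. Of 5 mesenchymal markers tested, 1 rose, fibronectin gene FN1, with a log2 fold change of 0.95 and an adjusted p of 0.0216 in edgeR with Benjamini-Hochberg adjustment. This call was lost without siLSD1 replicate 1 or siLSD1 replicate 3, at log2 fold changes of 1.01 and 0.85.

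None of the 9 genes was called up- or downregulated upon LSD1 knockdown. All 9 passed the filter on low counts. By the quasi-likelihood test of edgeR, adjusted over 11844 genes by Benjamini-Hochberg, 0 of the 9 had an adjusted p under 0.05, compared with 1.44% of all tested genes, and their adjusted p-values ran from 0.359 to 0.994. At an unadjusted p under 0.05 the count was also 0 of 9, compared with 14% of all tested genes. The siCTR and siLSD1 libraries overlapped for each of the 9, whereas they did not overlap for 21.4% of all tested genes. Fitted levels were higher in siLSD1 for 6 genes and lower for 3, with a median log2 fold change of 0.11 beside -0.01 over all tested genes. For 8 of the 9 the 95% interval of the log2 fold change lay within -1 and 1, and the exception was TET1.

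**Figure D1:**
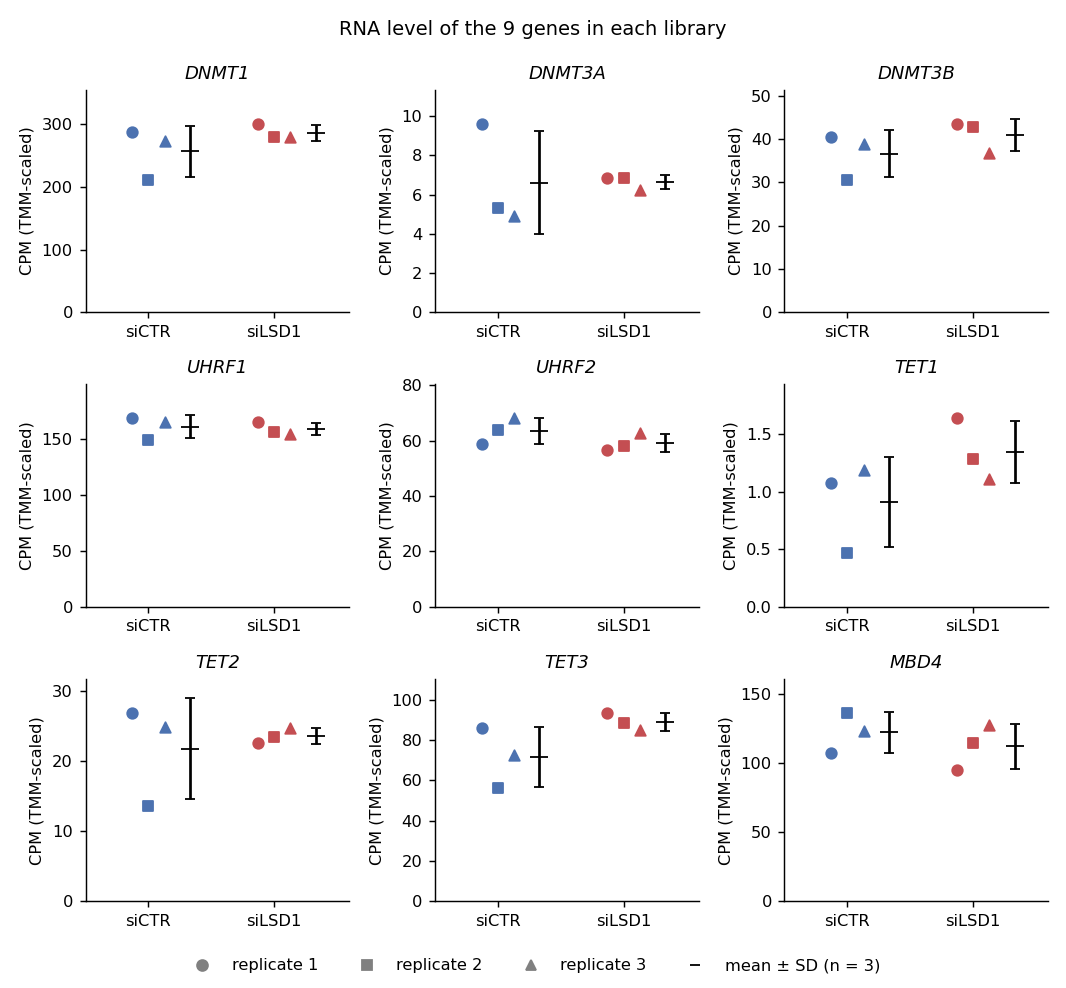
RNA level of each of the 9 genes in CPM after TMM scaling (vertical axes from 0), with siCTR libraries in blue, siLSD1 libraries in red, replicates 1 to 3 as circle, square and triangle, and the mean ± SD of 3 libraries in black. The groups overlap in all 9 panels, and the siCTR square (replicate 2) is the lowest of the 6 libraries in 6 of them.

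**Figure D2:**
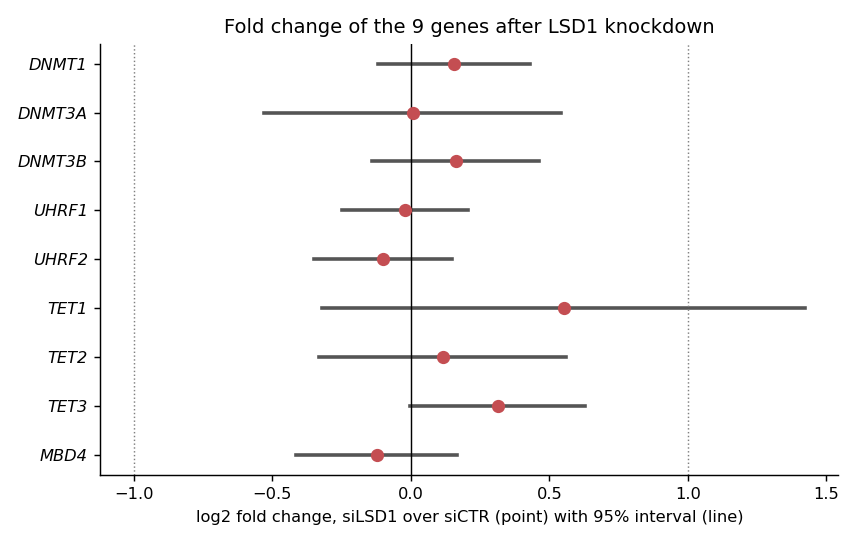
Log2 fold change of each gene in siLSD1 over siCTR (points) with its 95% interval from edgeR (lines), where 0 is no difference and the dotted lines mark -1 and 1. All 9 intervals cross 0, that of TET3 only just, and that of TET1 alone passes a dotted line.

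Among the writers, DNMT1 was at 288, 211 and 273 CPM in siCTR replicates 1, 2 and 3 and at 301, 280 and 279 CPM in siLSD1 replicates 1, 2 and 3. DNMT1 is the maintenance methyltransferase. Both siCTR replicates 1 and 3 lay close to the siLSD1 libraries, and siCTR replicate 2 stood below all others. The log2 fold change was 0.16 ± 0.13 (SE), with a 95% interval of -0.12 to 0.43 and an adjusted p of 0.610 in edgeR with Benjamini-Hochberg adjustment. Without siCTR replicate 2, the log2 fold change was 0.03, and without siCTR replicate 1 it was 0.24. DNMT1 lies at chr19:10133342-10231286 on the minus strand (GRCh38, GENCODE release 44) and shares 83 exonic bases with S1PR2 on the same strand.

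DNMT3B was at 40.6, 30.4 and 38.8 CPM in siCTR and at 43.6, 42.7 and 36.7 CPM in siLSD1, in the order of the replicates. DNMT3B is one of the methyltransferases that set new methylation, and siCTR replicate 2 was again the lowest library. Its log2 fold change was 0.16 ± 0.14 (SE, 95% interval -0.14 to 0.46), and 0.05 without siCTR replicate 2. DNMT3A, its paralog, had 125, 68 and 66 reads in siCTR and 92, 85 and 84 reads in siLSD1. Here the high library was siCTR replicate 1, while the siLSD1 libraries sat together between it and the other siCTR libraries. The log2 fold change of DNMT3A was 0.01 ± 0.25 (SE, 95% interval -0.53 to 0.54). The DNMT3A value changed sign without siCTR replicate 2 (-0.13), siCTR replicate 3 (-0.17), siLSD1 replicate 1 (-0.02) or siLSD1 replicate 2 (-0.01). DNMT3L, the regulatory relative without catalytic activity, had 14 reads over the 6 libraries and was not tested.

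Among the readers that guide maintenance, UHRF1 was at 169, 149 and 166 CPM in siCTR and at 165, 157 and 155 CPM in siLSD1. UHRF1 is a ubiquitin ligase that marks histone H3 to recruit DNMT1. Its libraries spread little, with a log2 fold change of -0.02 ± 0.11 (SE, 95% interval -0.25 to 0.21), and 0.01 without siCTR replicate 1. UHRF2, its paralog, was at 58.7, 63.8 and 68.1 CPM in siCTR and at 56.5, 58.3 and 62.9 CPM in siLSD1. Its log2 fold change was -0.10 ± 0.12 (SE, 95% interval -0.35 to 0.15), at -0.16 without siCTR replicate 1 and -0.05 without siCTR replicate 3.

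Among the erasers, TET3 had the lowest p of the 9 genes. It was at 86.0, 56.1 and 72.5 CPM in siCTR and at 93.4, 88.2 and 85.0 CPM in siLSD1. The groups overlapped, since siCTR replicate 1 lay above siLSD1 replicate 3. The log2 fold change was 0.31 ± 0.15 (SE, 95% interval -0.002 to 0.63), and the adjusted p was 0.359 in edgeR with Benjamini-Hochberg adjustment, at an unadjusted p of 0.0512 in the same edgeR fit. The value depended on the control libraries, at 0.17 without siCTR replicate 2 and 0.46 without siCTR replicate 1. Over all alternatives the adjusted p of TET3 stayed between 0.0625 and 0.645 in edgeR, limma and DESeq2 with Benjamini-Hochberg adjustment. TET3 (chr2:73984910-74108176, plus strand) shares 390 exonic bases with a long noncoding RNA gene on the same strand.

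TET2 was at 26.9, 13.6 and 24.9 CPM in siCTR and at 22.6, 23.4 and 24.8 CPM in siLSD1. The siCTR replicate 2 library held 174 reads of TET2, where the other 5 held 292 to 349. The log2 fold change was 0.11 ± 0.21 (SE, 95% interval -0.33 to 0.56), and it turned to -0.13 without siCTR replicate 2 and was 0.29 without siCTR replicate 1. TET1, the family member best known from embryonic stem cells, had only 14, 6 and 16 reads in siCTR and 22, 16 and 15 reads in siLSD1. Its log2 fold change of 0.55 ± 0.40 (SE) had a 95% interval of -0.32 to 1.42, so a doubling could not be told from no difference in these libraries. The value was 0.25 without siCTR replicate 2.

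MBD4 encodes a glycosylase that cuts out thymine mispaired with guanine, the product of methylcytosine deamination. It was at 107, 136 and 123 CPM in siCTR and at 94.6, 115 and 127 CPM in siLSD1. The highest library was siCTR replicate 2, unlike for the writers and erasers. The log2 fold change was -0.12 ± 0.14 (SE, 95% interval -0.41 to 0.17). It was -0.02 without siLSD1 replicate 1, -0.04 without siCTR replicate 2, -0.21 without siCTR replicate 1 and -0.22 without siLSD1 replicate 3. MBD4 (chr3:129430947-129440179, minus strand) shares 279 exonic bases with IFT122 on the opposite strand, and whether counting used strand is not stated, so reads of the shared bases cannot be assigned to either gene.

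The 9 genes differed much more in level than between groups. On the deposited FPKM scale, which is per length, the order of the means over 6 libraries was DNMT1 (49.9 ± 6.12 FPKM, SD, n = 6), MBD4 (39.3), UHRF1 (31.1), UHRF2 (16.2), DNMT3B (8.38), TET3 (6.99), TET2 (1.44), DNMT3A (0.617) and TET1 (0.122). The ranges of neighbours overlapped for DNMT1 and MBD4, for MBD4 and UHRF1, for DNMT3B and TET3, and for TET2 and DNMT3A. Within a library, DNMT1 was above MBD4 in 5 of 6 libraries, MBD4 above UHRF1 in 5 of 6, DNMT3B above TET3 in 6 of 6 and TET2 above DNMT3A in 6 of 6. All other neighbours were separate. The maintenance enzyme made up most of the methyltransferase RNA, with 83.9 to 85.8% of the summed FPKM of the 3 DNMT genes, while DNMT3B contributed 13.3 to 15.1% and DNMT3A 0.776 to 1.44%. Of the summed FPKM of the TET genes, TET3 contributed 78.7 to 84.3%, TET2 14.7 to 19.7% and TET1 0.868 to 1.81%. All 9 genes kept their rank in a second deposited counting of the same libraries, in which the ranges of TET2 and DNMT3A did not overlap.

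**Figure D3:**
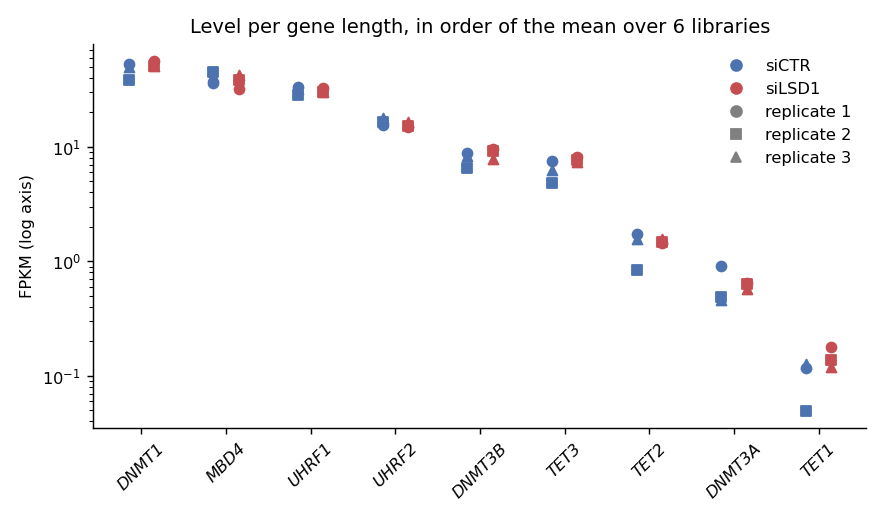
Level of each gene per length in FPKM on a log axis, in each siCTR (blue) and siLSD1 (red) library, with replicates 1 to 3 as circle, square and triangle and the genes ordered by their mean over 6 libraries. DNMT1, MBD4 and UHRF1 lie highest and TET1 lowest, and both groups of libraries give the same order of magnitude for each gene.

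The balance between partners was read as a ratio of FPKM values within each library. For UHRF1 to DNMT1 it was 0.621, 0.750 and 0.643 in siCTR and 0.581, 0.593 and 0.588 in siLSD1. The 3 siLSD1 ratios lay close together, below all siCTR ratios. The log2 difference was -0.19, and the exact two-sided permutation test gave p = 0.1, the smallest value that 3 against 3 libraries can give, with an adjusted value of 0.4 over the 4 ratios compared. Without siCTR replicate 2 the log2 difference was -0.11. DNMT3B to DNMT3A was 13.8 ± 4.30 in siCTR and 14.3 ± 0.569 in siLSD1 (SD, n = 3; exact permutation p = 0.7), and the sign of its log2 difference, 0.10, turned without siCTR replicate 1 (-0.13). UHRF1 to UHRF2 was 1.88 ± 0.210 in siCTR and 1.99 ± 0.170 in siLSD1, and the TET3 share of TET RNA was 81.1 ± 2.86% and 82.4 ± 1.05% (SD, n = 3; exact permutation p = 0.5 for both). These 3 ratios overlapped between the groups.

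The library siCTR replicate 2 was the lowest of all 6 for 6 of the 9 genes, compared with 24.5% of all tested genes. Its level was 75.2% of the mean of siCTR replicates 1 and 3 for DNMT1, 70.7% for TET3, 52.3% for TET2 and 118% for MBD4. The spread over libraries was larger in siCTR than in siLSD1 for 8 of the 9, beside 52.7% of all tested genes. Across all tested genes the same library read long genes low and short genes high. Its median deviation from the mean of the 6 libraries was -0.14 on the log2 scale for genes over 4913 bases and 0.18 for genes under 2797 bases, where the length is the one that the deposited FPKM implies. Of the 9 genes, MBD4 (2973 bases) and UHRF2 (3797 bases) were the shortest and TET2 (15726 bases) the longest. None of the 9 was under 2797 bases, and MBD4, UHRF2 and DNMT3B (4630 bases) fell between these length classes. GC content also tracked with the libraries, with a median deviation for genes over 54.3% GC of -0.22 in siLSD1 replicate 3, 0.15 in siLSD1 replicate 1 and 0.11 in siCTR replicate 1. After a correction of each library for GC content and length together, the log2 fold changes were 0.11 for DNMT1, 0.12 for DNMT3B, 0.05 for TET2 and 0.21 for TET3. The part of length alone was not tested. The corrected fit called 0 of the 9 at an adjusted p under 0.05.

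**Figure D4:**
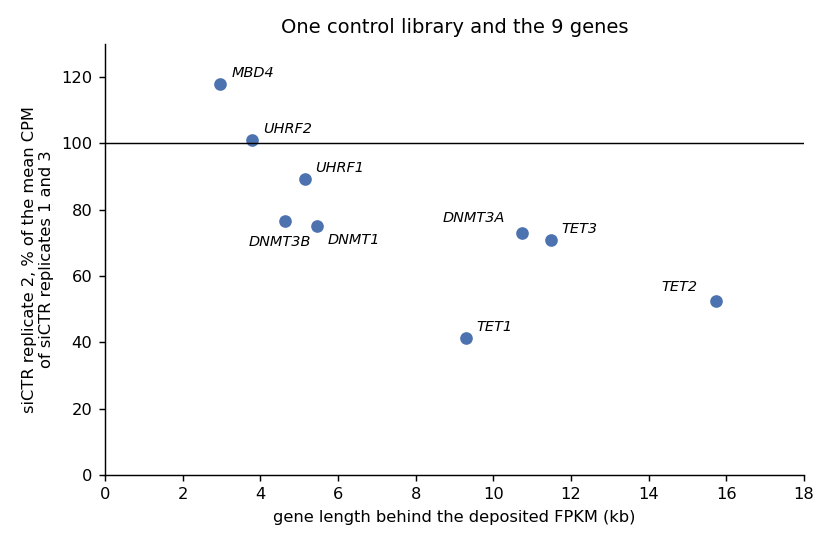
Level of each gene in siCTR replicate 2 as a percentage of the mean CPM of siCTR replicates 1 and 3 (vertical axis, from 0), plotted against the gene length behind the deposited FPKM in kb (horizontal axis). MBD4 and UHRF2, the shortest, lie at or above the line at 100%, and the other 7 genes lie below it.

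The genes nearest in profile to DNMT1 and UHRF1 over the 6 libraries were picked for that likeness, so their pattern is a description. Likeness was measured as the root mean square difference of centred log2 CPM among 9065 genes of at least 10 CPM. The nearest were HNRNPUL1 (0.00893), ARHGAP35 (0.0248) and SIK3 (0.0255), against a median of 0.233. HNRNPUL1 was at 458, 337 and 436 CPM in siCTR and at 486, 443 and 442 CPM in siLSD1. For UHRF1 the nearest were SUN1 (0.0258), WDR59 (0.0267) and SUDS3 (0.0268), against a median of 0.175.

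Proteins known to set the stability of DNMT1 were examined next, since LSD1 is known to act on it there. Of 11 such genes, all tested, 0 had an adjusted p under 0.05 and 1 was higher at an unadjusted p under 0.05 (9.09%, beside 7.48% of all tested genes). SETD7, the lysine methyltransferase that opposes LSD1 on DNMT1, was at 109, 90.2 and 115 CPM in siCTR and at 132, 138 and 164 CPM in siLSD1. Every siLSD1 library lay above every siCTR library. The log2 fold change of SETD7 was 0.47 ± 0.13 (SE), 95% interval 0.19 to 0.74, with an adjusted p of 0.110 in edgeR with Benjamini-Hochberg adjustment. After correction for GC content and length it was 0.41, with an adjusted p of 0.00491 in edgeR with Benjamini-Hochberg adjustment, and with DESeq2 it also passed the threshold. PHF20L1, which binds methylated DNMT1 and protects it, had a log2 fold change of 0.10 ± 0.11 (SE), and 0.15 without siLSD1 replicate 1.

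L3MBTL3 binds methylated DNMT1 for degradation through DCAF5 and the CUL4-DDB1 ubiquitin ligase. It had 82, 74 and 102 reads in siCTR and 67, 62 and 67 reads in siLSD1, and the groups did not overlap. Its log2 fold change was -0.40 ± 0.19 (SE, 95% interval -0.81 to 0.02). The ligase subunits had values of -0.12 (DCAF5), 0.11 (CUL4A), 0.18 (CUL4B) and 0.08 (DDB1) on the log2 scale. Single libraries moved these values. Without siCTR replicate 2 DCAF5 was at -0.25 and DDB1 at 0.03, and without siCTR replicate 3 they were at -0.03 and 0.13. CUL4B was at 0.28 when siLSD1 replicate 1 was left out and at 0.075 when siLSD1 replicate 3 was left out. The deubiquitinase USP7 was at -0.07, the acetyltransferase KAT5 at 0.00, the deacetylase HDAC1 at 0.16 and the kinase AKT1 at -0.09. CUL4A (606.5 to 622.2 CPM in siCTR, 635.1 to 681.6 CPM in siLSD1) and HDAC1 did not overlap between the groups, like SETD7 and L3MBTL3. Of all tested genes, 21.4% did not overlap. USP7 was at -0.15 and AKT1 at -0.03 when siLSD1 replicate 3 was left out, USP7 at -0.01 without siLSD1 replicate 1 and -0.03 without siLSD1 replicate 2, and AKT1 at -0.14 without siCTR replicate 2 and -0.04 without siCTR replicate 1. None of these genes, L3MBTL3 included, passed the adjusted or the unadjusted threshold with all 6 libraries and without correction, and the median over all 11 was 0.08. After the correction for GC content and length, L3MBTL3 (-0.42) and HDAC1 (0.17) passed the unadjusted threshold and not the adjusted one, as they also did uncorrected without siCTR replicate 2. CUL4B passed the unadjusted threshold uncorrected without siLSD1 replicate 1, and in the corrected fit with the replicate block or without siCTR replicate 2, and DCAF5 passed it in the last of these fits. The correction moved USP7 to -0.15, AKT1 to -0.02, DDB1 to 0.03, CUL4A to 0.06, DCAF5 to -0.19 and PHF20L1 to 0.05.

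**Figure D5:**
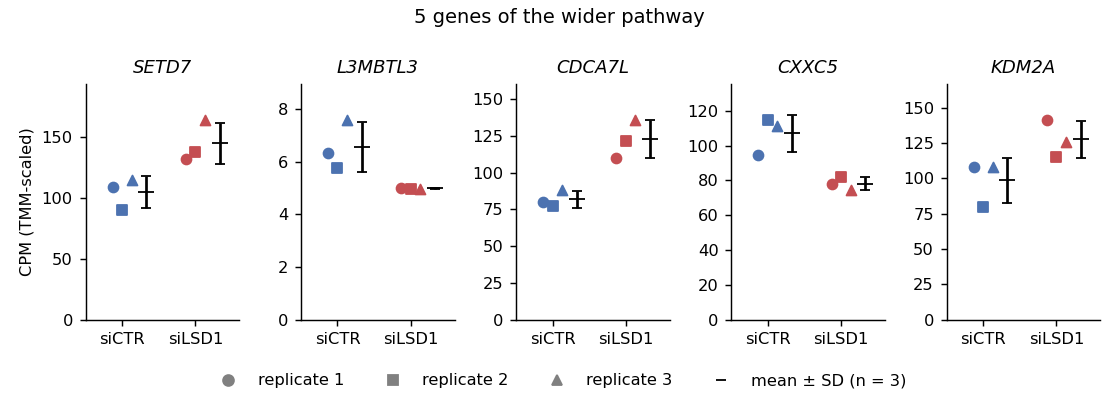
RNA level in CPM after TMM scaling (vertical axes from 0) of SETD7 and L3MBTL3, which act on the DNMT1 protein, and of CDCA7L, CXXC5 and KDM2A, with siCTR in blue, siLSD1 in red, replicates 1 to 3 as circle, square and triangle, and the mean ± SD of 3 libraries in black. The groups do not overlap in these 5 panels, and CDCA7L alone had an adjusted p under 0.05.

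The wider pathway was followed in 8 gene lists, the 11 genes above included. Of their 106 tested genes, 1 had an adjusted p under 0.05 (0.943%, beside 1.44% of all tested genes), 12 had an unadjusted p under 0.05 (11.3% beside 14%) and 26 did not overlap between the groups (24.5% beside 21.4%). These shares were near those of all tested genes. The gene that passed was CDCA7L, which rose. It is the paralog of CDCA7, the partner of the remodeller HELLS that is needed for methylation of repeats. CDCA7L was at 80.3, 77.3 and 88.3 CPM in siCTR and at 110, 122 and 136 CPM in siLSD1, with no overlap. Its log2 fold change was 0.58 ± 0.12 (SE), with an adjusted p of 0.0304 in edgeR with Benjamini-Hochberg adjustment. The call was lost in 5 of 6 fits that left out 1 library, with an adjusted p of 0.0761 without siCTR replicate 1, 0.0799 without siCTR replicate 2, 0.0737 without siCTR replicate 3, 0.144 without siLSD1 replicate 2 and 0.0813 without siLSD1 replicate 3 in edgeR with Benjamini-Hochberg adjustment, while the log2 fold change stayed between 0.50 and 0.65.

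Of 15 maintenance partners tested, CDCA7L was the only one past either threshold, and the median was -0.01. That is 6.67% of the list, beside 7.48% of all tested genes higher at an unadjusted p under 0.05 and 1.44% past the adjusted threshold. Among 11 readers of methylated or unmethylated CpG, 0 passed the adjusted threshold, beside 1.44% of all tested genes. At an unadjusted p under 0.05, 1 was higher (KDM2A, 9.09% beside 7.48%) and 1 lower (CXXC5, 9.09% beside 6.55%). CXXC5, a CXXC-domain protein, was at 94.9, 115 and 111 CPM in siCTR and at 77.9, 82.0 and 74.7 CPM in siLSD1, with a log2 fold change of -0.45 ± 0.12 (SE) and an adjusted p of 0.0795 in edgeR with Benjamini-Hochberg adjustment. KDM2A, a histone demethylase that binds unmethylated CpG, had a log2 fold change of 0.37 ± 0.14 (SE), with 98.6 ± 16.1 CPM in siCTR and 128 ± 13.3 CPM in siLSD1 (SD, n = 3). Both genes passed the adjusted threshold in the fit corrected for GC content and length, at log2 fold changes of -0.41 and 0.29. Both also passed it with the replicate block, and CXXC5 with DESeq2. Without siCTR replicate 2, KDM2A was at 0.24 both uncorrected and corrected, and its corrected call was lost, at an adjusted p of 0.0616 in edgeR with Benjamini-Hochberg adjustment.

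Among 12 genes of active demethylation and base excision repair, 0 passed the adjusted threshold and 2 (16.7%, beside 6.55% of all tested genes) had lower levels at an unadjusted p under 0.05. They were POLB, the repair polymerase, with a log2 fold change of -0.44 ± 0.14 (SE), and GADD45B, a stress gene linked to demethylation, with -0.52 ± 0.18 (SE). Neither gene's groups overlapped. POLB passed the adjusted threshold after the correction for GC content and length, at 0.0329 in edgeR with Benjamini-Hochberg adjustment. The one-carbon cycle supplies the methyl donor. Of 12 genes of this cycle and their relatives, 1 was higher at an unadjusted p under 0.05 (8.33%, beside 7.48% of all tested genes), and 0 passed the adjusted threshold. The higher gene was AHCYL1, a relative of the cycle enzyme AHCY, with a log2 fold change of 0.28 ± 0.11 (SE).

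Genes whose promoters are silenced by methylation in many tissues, or only in some tumours, could be read only in part. Of 33 genes listed, chiefly germline and cancer-testis genes, 22 were in the table and 13 were tested, with 4 higher, 9 lower and a median of -0.06. The filter left out near-silent members such as TEX101 and SSX2, with 2 reads each in all, so the tested ones were mostly genes that these cells already expressed. None passed the adjusted threshold, beside 1.44% of all tested genes, and 1 was higher at an unadjusted p under 0.05 (7.69%, beside 7.48% of all tested genes), DPPA2. The pluripotency gene DPPA2 had 26, 25 and 15 reads in siCTR and 38, 51 and 51 reads in siLSD1, which did not overlap, with a log2 fold change of 1.08 ± 0.30 (SE) and an adjusted p of 0.111 in edgeR with Benjamini-Hochberg adjustment, which became 0.0263 after the correction for GC content and length. Several members of the list were not silent in the control cells, such as MAGEA1 with 1446 to 1908 reads in siCTR. Reads of MAGEA genes may be shared between near-identical copies.

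DNMT1 and UHRF1 are expressed mainly in cycling cells, so cell cycle genes are given beside them. Of 19 S-phase genes, 0 passed the adjusted threshold and 3 (15.8%, beside 6.55% of all tested genes) were lower at an unadjusted p under 0.05, with a median log2 fold change of -0.06. They were CCNE1 (-0.39 ± 0.11, SE), CCNE2 (-0.45 ± 0.14, SE) and MCM4 (-0.26 ± 0.11, SE), the cyclins of S-phase entry and a helicase subunit. After the correction for GC content and length, CCNE1 and MCM4 passed the adjusted threshold, at 0.0120 and 0.0172 in edgeR with Benjamini-Hochberg adjustment. CCNE2 passed it with a block for the replicate number, at 0.0269, and in the corrected fit without siCTR replicate 2, at 0.0286, by the same edgeR adjustment. The summed level of the list was 3277 to 3466 CPM in siCTR and 3301 to 3311 CPM in siLSD1. Of 14 G2/M genes, 0 passed the adjusted threshold and 1 was higher at an unadjusted p under 0.05 (7.14%, beside 7.48%), HMMR (0.39 ± 0.15, SE). HMMR passed the adjusted threshold after the same correction, at 0.0153 in edgeR with Benjamini-Hochberg adjustment, and its uncorrected log2 fold change was 0.22 without siLSD1 replicate 3. The list had a summed level of 4468 to 4951 CPM in siCTR and 4607 to 5479 CPM in siLSD1. Their part in the values of DNMT1 and UHRF1 was not tested.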

How the data were processed

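Read counts were deposited by the authors as whole reads for 6 libraries, after alignment with STAR and without normalization. The genome build, annotation and counter are not given in the sources used here. The authors also deposited a normalized signal (counts divided by a size factor per library), which was not used for tests, and FPKM values. The authors' tables for 3 pairs of same-numbered libraries hold a second counting, never lower for any gene and a median 1.11 times higher. Deposited fold changes and p-values of the authors' own comparison were not used.

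Counts were analysed with edgeR 4.0.16 in R 4.3.3 (TMM factors, genes kept by filterByExpr at a minimum of 10 counts, quasi-likelihood test without covariates), and p-values were adjusted with the Benjamini-Hochberg method over 11844 genes. The biological coefficient of variation was 12.6%. Intervals for fold changes are 95%. Sampling noise alone did not account for the difference between any pair of libraries (chi-square per degree of freedom 6.41 to 38.5). Ratios of FPKM were compared with exact two-sided permutation tests in scipy 1.17.1 (Python 3.11.15, numpy 2.4.6, pandas 2.3.3, matplotlib 3.10.9). The alternatives were DESeq2 1.42.0, limma-voom (limma 3.58.1), other scalings and filters, a block for the replicate number, the second counting, a correction for GC content and length (lowess, span 0.3; GC known for 99.2% of tested genes) and leaving out each library. The correction with the block, or without siCTR replicate 2, was chosen after seeing the data. The procedure was tested on simulated counts.

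Positions and GC content are from GENCODE release 44 on GRCh38 and promoter sequences from RefSeq on GRCh38.p14. Of 15585 genes, 14950 matched by symbol and 390 by an older symbol. Named genes were the 9 genes, KDM1A, all 11 DNMT1 stability genes, up to 6 genes per other list with an unadjusted p under 0.05, and the 3 profiles nearest to DNMT1 and UHRF1. Members and lists were written from general knowledge and chosen with earlier results of these data known. Other genes given with read counts (DNMT3L, MAGEA1 and markers) were chosen after their values were seen.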

Additional observations from a re-analysis of the deposited data

How the results depend on the processing

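None of the 9 genes reached an adjusted p under 0.05 in any of the 17 alternatives. The count with an unadjusted p under 0.05 rose from 0 to 1, in each case TET3, with DESeq2, limma-voom, no filter, at least 1 CPM in 3 libraries, the second counting, the correction for GC content and length (with or without siCTR replicate 2, or with the block), and without siCTR replicate 1 (range 0 to 1 with 1 library left out). Signs changed for DNMT3A in 7 alternatives (-0.08 corrected for GC content and length, -0.059 corrected with the block, -0.11 corrected without siCTR replicate 2, and -0.13, -0.17, -0.02 and -0.01 with 1 library left out, where the range was -0.17 to 0.38), for UHRF1 (range -0.071 to 0.011 with 1 library left out, the latter without siCTR replicate 1) and for TET2 (-0.13 without siCTR replicate 2, corrected or not, and up to 0.29 with another library left out). With 1 library left out, the log2 difference ranged from -0.13 (without siCTR replicate 1) to 0.33 for DNMT3B to DNMT3A, from -0.24 to -0.11 for UHRF1 to DNMT1, from 0.02 to 0.17 for UHRF1 to UHRF2 and from 0.00 to 0.05 for the TET3 share. The cause of these shifts was not tested.

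Over all genes, 127 calls higher and 44 lower became 210 and 113 with DESeq2, 602 and 414 corrected for GC content and length, 658 and 484 corrected without siCTR replicate 2, and 45 to 99 and 7 to 37 with 1 library left out; without a filter 102 were lower. At an unadjusted p under 0.05, 886 higher and 776 lower became 1489 and 1427 corrected and 1547 and 1409 corrected without siCTR replicate 2, and the lower ranged from 454 to 889 with 1 library left out. The 1 call in the other gene lists became 9 corrected, 11 corrected without siCTR replicate 2, and 0 to 1 with 1 library left out.

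The deviations of same-numbered libraries had correlations of 0.328, 0.074 and 0.31, and the second is under the 0.1 asked of every pair. The labels give no shared batch, so the numbers were not treated as pairs. However, the authors' own pair tables set same-numbered libraries against each other, and each library correlated best with its own number. Both are hints of pairing, and neither shows a shared batch. A block for the replicate number gave 489 genes higher and 408 lower (823 and 705 with the correction), 1323 lower at an unadjusted p under 0.05 (1703 higher and 1694 lower with the correction), 9 calls in the other lists (CDCA7L, SETD7, CXXC5, KDM2A, POLB, DPPA2, CCNE1, CCNE2 and HMMR; 13 with the correction) and 1 of the 9 genes, TET3, at an unadjusted p under 0.05 (log2 fold change 0.33). TET1 had only 6 to 22 reads per library, and its log2 fold change went from 0.55 to 0.25 without siCTR replicate 2. The parts of read depth and of spread between libraries in its wide interval were not tested.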
